A study of Mus musculus with 3 samples.

Results

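The 8 genes described here, Odc1, Amd1, Srm, Sms, Oaz1, Oaz2, Azin1 and Sat1, make, limit and break down polyamines. They were taken by gene symbol from the 23361 genes of the mouse liver mRNA profiles, and all 8 were found. The profiles are 1 library each from C57BL/6J mice of 8 to 10 weeks that the labels give as male. All had fasted for 12 h and were operated on under chloral hydrate. In the sham group the abdomen was opened without occlusion and the liver was taken 90 min later. In the warm ischemia (WI) group the vessels to the left and median lobes, 70% of the liver, were clamped for 90 min. In the ischemia followed by reperfusion (IR) group the clamp was removed after 90 min and the liver was taken after 120 min of reperfusion. The methods give 6 mice per group and leave unsaid whether RNA was pooled. Since sham livers were taken at 90 min, reperfusion and the longer time after surgery cannot be told apart.

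Putrescine, spermidine and spermine are small positively charged molecules that bind nucleic acids and are needed for translation and cell growth. Ornithine decarboxylase (Odc1) makes putrescine from ornithine. S-adenosylmethionine decarboxylase (Amd1) supplies the aminopropyl groups with which spermidine synthase (Srm) and spermine synthase (Sms) lengthen the chain. Antizymes (Oaz1, Oaz2), made when polyamines are abundant, bind ornithine decarboxylase and send it to the proteasome, and the antizyme inhibitor (Azin1), an inactive relative of the enzyme, takes antizyme away from it. Spermidine/spermine N1-acetyltransferase (Sat1) tags polyamines for export or oxidation. Odc1 is a classic early gene of the liver that regenerates after partial removal.

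The measure is FPKM, fragments counted per length of transcript and per mapped fragments of the library, which can be set side by side between genes because it is per length. Each FPKM has lower and upper 95% bounds from Cuffdiff, which come from its count model. With 1 library per group they cannot measure the variation between mice of the same group. With 1 library per group no test was made here, and no difference given here has a replicate check. The authors called differentially expressed mRNAs between pairs of samples with Cuffdiff, and their calls are not used here. Changes are differences in log2(FPKM + 1), so those of Amd1 and Sms, the lowest genes, are understated. A gene is called higher or lower where FPKM + 1 differed at least 2-fold. Shares over all genes refer to the 10792 genes that reached an FPKM of 1 in any of the samples, among them all 8 polyamine genes.

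In sex, the sham and WI libraries went against the male label. Xist, the RNA of the inactive X chromosome, stood at an FPKM of 18.9 in sham, 20.15 in WI and 1.29 in IR. The Y-linked genes Eif2s3y, Uty and Kdm5d were at 0 in the sham and WI samples, where Ddx3y was at 0 and at 0.00849, and all 4 had an FPKM between 0.669 and 13.2 in IR. A difference in sex and the effect of reperfusion therefore cannot be told apart in either comparison with the IR sample. The summed FPKM of markers of other cells differed too. The 6 neutrophil markers summed to 25.4, 19.3 and 469 in the sham, WI and IR samples and all 6 were at least 2-fold higher in the IR sample than in either other sample, while the 6 Kupffer cell markers summed to 442, 221 and 138, and 5 of these 6 were at least 2-fold lower in IR than in sham. The sums were 126.5, 91.8 and 103 for 6 endothelial, 146, 104 and 106 for 6 stellate cell, 54.3, 62.0 and 93.8 for 6 cholangiocyte, 6.16, 5.03 and 2.34 for 6 lymphocyte, and 751, 518 and 1976 for 5 erythroid markers, of which 5 were at least 2-fold higher in IR than in sham. The 8 hepatocyte markers summed to 39271, 35450 and 50512. Alb, the albumin gene, is missing from these sums, since it was listed at 0 in all 3 samples for too many fragments (status HIDATA). None of the other markers given here was listed at 0. The part of cell types in the results was not tested, and in whole tissue more cells of a type and more RNA per cell cannot be told apart.

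The sequence upstream is shown for Odc1 and Sat1, the genes with the largest differences from WI to IR, and for Oaz1, the most abundant of the others. The windows run from 250 bases before to 50 bases after the RefSeq start in GRCm38.p6, at chr12:17544623-17544922 (plus strand) for Odc1, chrX:155216400-155216699 (minus strand) for Sat1 and chr10:80826406-80826705 (plus strand) for Oaz1. Capitals mark any of 7 motifs searched on both strands, listed in the next paragraph.
Odc1: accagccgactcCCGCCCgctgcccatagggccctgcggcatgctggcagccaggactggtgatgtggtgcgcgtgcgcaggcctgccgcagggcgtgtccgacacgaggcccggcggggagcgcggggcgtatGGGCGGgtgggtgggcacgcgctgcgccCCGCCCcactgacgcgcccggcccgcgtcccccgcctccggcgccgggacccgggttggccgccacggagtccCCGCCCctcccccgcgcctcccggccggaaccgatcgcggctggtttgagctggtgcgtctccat
Sat1: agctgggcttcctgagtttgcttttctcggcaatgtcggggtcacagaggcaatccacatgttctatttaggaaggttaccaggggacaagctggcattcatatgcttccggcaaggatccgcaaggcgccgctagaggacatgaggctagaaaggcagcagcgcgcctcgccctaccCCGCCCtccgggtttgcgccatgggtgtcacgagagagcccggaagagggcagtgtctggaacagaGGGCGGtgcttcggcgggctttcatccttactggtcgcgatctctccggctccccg
Oaz1: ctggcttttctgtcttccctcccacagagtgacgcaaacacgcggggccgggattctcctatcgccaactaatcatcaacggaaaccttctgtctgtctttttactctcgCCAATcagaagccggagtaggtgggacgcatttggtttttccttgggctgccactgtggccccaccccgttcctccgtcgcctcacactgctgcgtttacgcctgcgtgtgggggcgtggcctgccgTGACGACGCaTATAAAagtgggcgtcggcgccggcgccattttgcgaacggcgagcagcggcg

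The motifs were the E-box of Myc and Max (CACGTG), the TATA box (TATAAA), the GC box of Sp1 (GGGCGG), the CCAAT box (CCAAT), the AP-1 site (TGANTCA), the cyclic AMP response element (TGACGTCA) and the core of the antioxidant response element (TGACNNNGC). They were held by 7.17%, 13.6%, 35.9%, 37.4%, 7.79%, 1.80% and 12.4% of 32544 promoter windows of the same length, in the same order. The Odc1 window held the GC box 4 times and no other motif of the list, and the Sat1 window held it 2 times and nothing else. The Oaz1 window held a TATA box that begins at position -3 from the start, a CCAAT box and an antioxidant response element core, and no GC box. The share of G and C was 78.0% for Odc1, 60.3% for Sat1 and 60% for Oaz1, against a median of 53.0% over all windows. Windows were found for 6 of the 8 genes, not for Srm and Azin1. No motif of the list contains another. A match is a description of letters and not of binding. The lack of a match holds for the window only, and sequence outside it was not searched.

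From sham to WI no polyamine gene was called. Of the 8, 0 were at least 2-fold higher and 0 at least 2-fold lower, beside 0.751% and 1.10% of all genes. In 0 of them did the bounds of the samples lie apart, as they did for 0.195% of all genes in the higher and 0.482% in the lower direction. The changes ran from -0.45 for Sat1 to 0.46 for Srm, with a median of 0.02, the median of all genes being 0.02 as well. From WI to IR, 2 of the 8 genes, Sat1 and Odc1, were at least 2-fold higher, beside 5.78% of all genes, and 0 were lower, beside 1.43%. The bounds of the samples lay apart for the same genes, Sat1 and Odc1, beside 3.22% of all genes that were higher with bounds apart and 0.398% that were lower. From sham to IR, 3 genes, Sat1, Srm and Odc1, were at least 2-fold higher, beside 5.35%, and 0 lower, beside 2.15%. Only for Sat1 did the bounds lie apart between these samples, beside 2.70% of all genes in the higher and 1.12% in the lower direction. The median change of the 8 genes was 0.59 from WI to IR and 0.58 from sham to IR, against 0.03 and 0.05 over all genes. Each library enters 2 of the 3 comparisons, so their values are not independent.

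**Figure D1:**
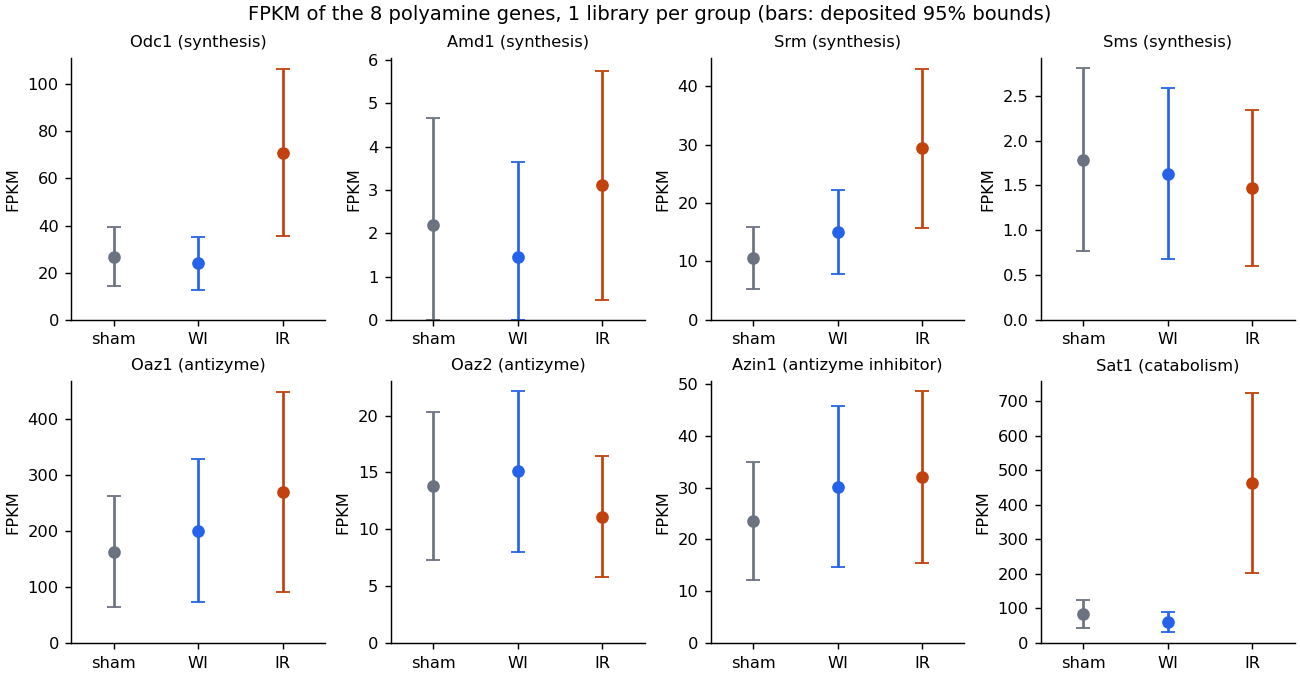
FPKM (vertical axes, from 0) of each of the 8 polyamine genes in the sham, WI and IR samples, 1 library per group; points are the deposited FPKM and bars its 95% bounds. Sat1 stands at 463 in the IR sample against 84.15 and 61.3, with bounds that do not reach those of the other samples, and Sms stays between 1.47 and 1.79.

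**Figure D2:**
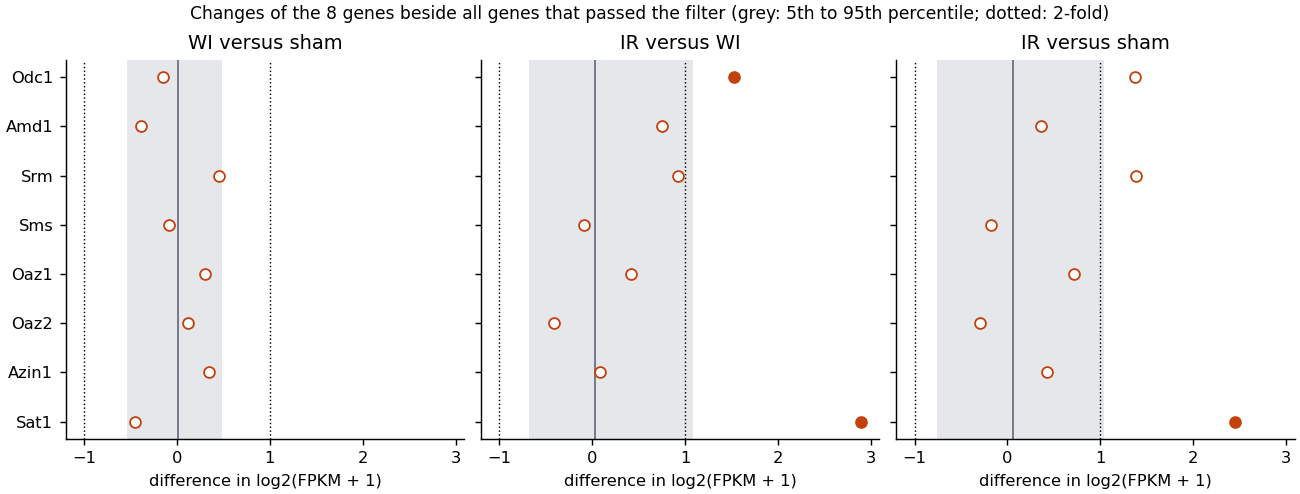
Differences in log2(FPKM + 1) of the 8 genes (horizontal axes) in the 3 comparisons; filled points have 95% bounds that lie apart, the grey band spans the 5th to 95th percentile of all 10792 genes, the grey line is their median and the dotted lines mark 2-fold. In the IR comparisons Sat1 lies at 2.90 and 2.44 and Odc1 at 1.52 and 1.37, while from sham to WI all 8 points lie inside the band.

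Odc1, which catalyses the first step of synthesis, lies on chromosome 12 of mm10 from 17544873 to 17551502. Its FPKM was 26.8 in sham (95% bounds 14.3 to 39.3), 24.0 in WI (12.8 to 35.1) and 70.8 in IR (35.3 to 106). The sham and WI samples were close and the IR sample stood above both. The change was -0.15 from sham to WI, 1.52 from WI to IR and 1.37 from sham to IR. The ratio of FPKM between IR and WI was 2.95, with a 95% interval from the deposited bounds of 1.49 to 5.85, and between IR and sham it was 2.64 (1.33 to 5.24). The gap between the bounds of WI and IR was narrow, and it closed under each rescaling of the libraries that was tried. By size, the increase from WI to IR ranked 293 of 10792 genes.

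Srm, which joins an aminopropyl group to putrescine, lies on chromosome 4 from 148591513 to 148594619. Its FPKM was 10.7 in sham (5.36 to 16.0), 15.0 in WI (7.84 to 22.2) and 29.35 in IR (15.8 to 42.9). It was the polyamine gene with the largest increase from sham to WI, 0.46, a change still inside the 5th to 95th percentile of all genes (-0.54 to 0.49). From WI to IR the change was 0.92, under the 2-fold threshold, and from sham to IR it was 1.38, past it. After rescaling to a common sum these values were 0.41 and 0.85, both under it. The ratio of FPKM between IR and sham was 2.75 (1.40 to 5.43), although the bounds of the 2 samples overlapped slightly, 15.8 being the lower bound of IR and 16.0 the upper bound of sham.

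Sms, which makes spermine from spermidine and lies on chromosome X from 157443954 to 157492046, was low throughout. Its FPKM was 1.79 in sham (0.767 to 2.81), 1.63 in WI (0.681 to 2.58) and 1.47 in IR (0.600 to 2.34). The bounds of the 3 samples overlapped almost entirely, and the ratio of IR to sham was 0.822 with an interval of 0.361 to 1.87, so a change within that range was not detectable. Srm and Sms, which catalyse successive steps, thus differed in level in every sample. The ratio of Sms to Srm was 0.168 in sham (0.0787 to 0.358), 0.109 in WI (0.0512 to 0.231) and 0.0501 in IR (0.0236 to 0.106), with overlapping intervals. A ratio within a library does not depend on how the libraries are scaled.

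Amd1 (chromosome 10, 40287458 to 40302188) reached an FPKM of 2.19 in sham (0 to 4.66), 1.45 in WI (0 to 3.65) and 3.11 in IR (0.467 to 5.76). These values cannot be read as those of 1 gene. The files give the same locus to Amd2, an intronless copy that RefSeq places elsewhere on chromosome 10, and its FPKM there was 8.44, 10.3 and 6.91 in the sham, WI and IR samples with the status LOWDATA. The reference transcripts of both genes, of 3203 and 3201 bases, were 99.4% identical, and their coding sequences of 1005 bases differed at 1 base. The 60 coding bases around that base, positions 767 to 826 of the coding sequence in the NCBIM37 annotation, are shown with the differing base in capitals.
Amd1: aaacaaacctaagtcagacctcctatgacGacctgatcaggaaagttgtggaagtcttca
Amd2: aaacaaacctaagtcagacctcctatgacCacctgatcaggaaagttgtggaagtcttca

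The share of the locus given to Amd1 was 20.6% in sham, 12.3% in WI and 31.05% in IR. The sum of both rows was flatter, at 10.6, 11.75 and 10.03. Amd1 alone differed by 0.36 from sham to IR, a value of -0.06 after rescaling to a common sum, and the summed locus by -0.08. From WI to IR the values were 0.75 for Amd1 and -0.21 for the sum, and from sham to WI they were -0.38 and 0.13. As deposited, the direction given by the Amd1 row was thus opposite to that of its locus in all 3 comparisons. With a pseudocount of 0.1 in place of 1, the Amd1 row was past 2-fold from WI to IR, at 1.05.

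Oaz1, the main antizyme, was the most abundant of the 8 genes in the sham and WI samples. It lies on chromosome 10 from 80826656 to 80829290. Its FPKM was 163 in sham (64.6 to 262), 201 in WI (73.7 to 328) and 269.8 in IR (90.7 to 449). Each sample was higher than the one before, with bounds that overlapped widely. The change was 0.30 from sham to WI, 0.42 from WI to IR (-0.12 after rescaling to a common sum) and 0.72 from sham to IR, all under 2-fold. The files give its locus also to Oaz1-ps, a pseudogene copy, whose FPKM was 69.3, 81.7 and 113 in the sham, WI and IR samples with the status LOWDATA, and to a microRNA gene, Mir1982. Oaz1 held 70.2%, 71.1% and 70.45% of the FPKM of Oaz1 and Oaz1-ps, and the sum of both differed by 0.72 from sham to IR.

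Oaz2, the second antizyme, lies on chromosome 9 from 65676548 to 65690300 and had an FPKM of 13.8 in sham (7.30 to 20.3), 15.1 in WI (8.03 to 22.2) and 11.1 in IR (5.77 to 16.4). The IR sample was the lowest, and the bounds of all 3 overlapped. Its change of -0.42 from WI to IR had the opposite sign to that of Oaz1 as deposited. After rescaling to a common sum it was -0.95 from WI to IR, where Oaz1 was also below 0, and -0.86 from sham to IR, against -0.29 as deposited. The ratio of Oaz2 to Oaz1 was 0.0845 in sham (0.0392 to 0.182), 0.0752 in WI (0.0342 to 0.165) and 0.0411 in IR (0.0181 to 0.0932), and the intervals overlapped.

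Azin1, which counters the antizymes, lies on chromosome 15 from 38487430 to 38519266. Its FPKM was 23.55 in sham (12.2 to 34.9), 30.2 in WI (14.6 to 45.8) and 32.1 in IR (15.4 to 48.7). The 3 values lay within each other's bounds. From sham to WI the change was 0.35. From sham to IR it was 0.43, and -0.13 after rescaling to a common sum. From WI to IR it was 0.08, and -0.45 or -0.29 after rescaling to a common sum with or without the major urinary protein (Mup) genes. Odc1 and Azin1, the enzyme and its inactive relative, had similar FPKM in the sham sample, with a ratio of Odc1 to Azin1 of 1.14 (0.582 to 2.23), and in WI, where it was 0.795 (0.397 to 1.59). In the IR sample the ratio was 2.21 (1.07 to 4.55), with an interval above equality but overlapping those of the other samples. The ratio of Odc1 to Oaz1 was 0.164 in sham (0.0765 to 0.352), 0.119 in WI (0.0544 to 0.262) and 0.2625 in IR (0.114 to 0.603). The FPKM of the Oaz1 row was thus 6.09, 8.38 and 3.81 times that of Odc1, and the intervals of the samples overlapped. All ratios to Oaz1 given here leave out Oaz1-ps, which shares its locus. The Oaz1 row held 70.2%, 71.1% and 70.45% of the FPKM of both in sham, WI and IR, so these ratios rest on that division. The ratio of Azin1 to Oaz1 moved less, between 0.119 in IR and 0.150 in WI.

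**Figure D3:**
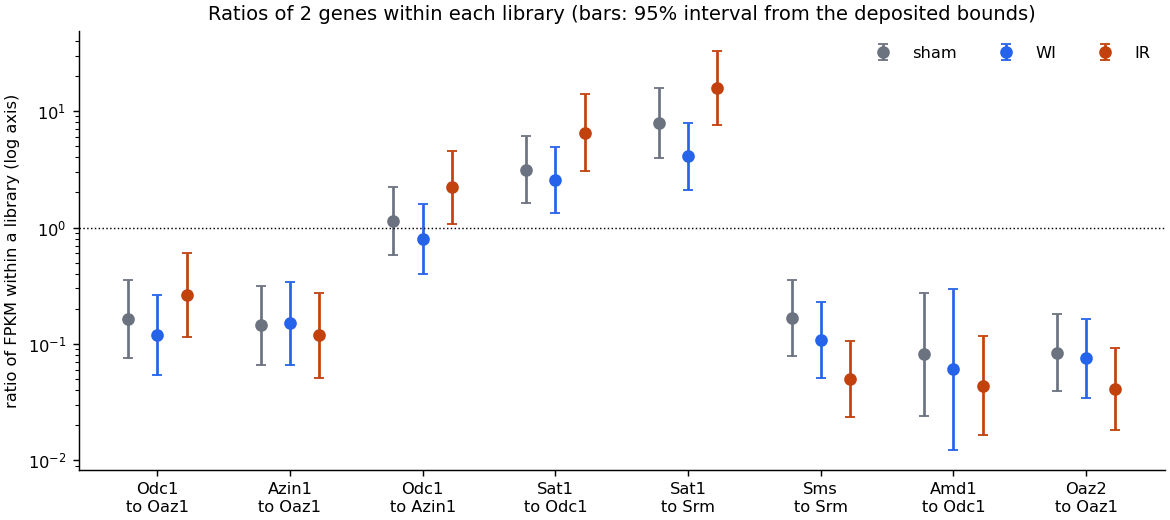
Ratio of FPKM of 2 polyamine genes within each library (vertical axis, log scale) for 8 pairs; points are the sham, WI and IR samples, bars are 95% intervals computed from the deposited bounds, and the dotted line marks equal FPKM. The ratio of Sat1 to Srm lies at 7.90, 4.09 and 15.8 in the sham, WI and IR samples, and that of Sms to Srm at 0.168, 0.109 and 0.0501.

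Sat1, the acetyltransferase of polyamine breakdown, differed most of the 8 genes. It lies on chromosome X from 155213139 to 155216409. Its FPKM was 84.15 in sham (44.6 to 124), 61.3 in WI (32.8 to 89.8) and 463 in IR (201 to 724). The WI sample was the lowest, with bounds that overlapped those of sham, and the lower bound of the IR sample lay above the upper bounds of both others. The change was -0.45 from sham to WI, 2.90 from WI to IR and 2.44 from sham to IR. The ratio of FPKM between IR and WI was 7.55 (3.63 to 15.7), and between IR and sham it was 5.50 (2.64 to 11.5). By size, these increases ranked 72 and 92 of 10792 genes. Its level exceeded those of 92.6% of the genes in sham and 97.9% in IR, and in IR it stood above Oaz1 as the most abundant of the 8 genes, with overlapping bounds. The ratio of Sat1 to Odc1 was 3.14 in sham (1.62 to 6.09), 2.555 in WI (1.325 to 4.93) and 6.53 in IR (3.07 to 13.9). That of Sat1 to Srm was 7.90 (3.98 to 15.7), 4.09 (2.10 to 7.96) and 15.8 (7.60 to 32.7) in the same order, with overlapping intervals.

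Sat1 and Sms are X-linked, and the libraries differed in the expression of Xist. The other 285 X-linked genes that passed the filter, Xist left out, had a median change of -0.05 from sham to IR, with 5% of them below -0.72 and 5% above 0.72. Of these 285, 8 were at least 2-fold higher in the IR sample, beside 5.35% of all genes, and 0 had a larger increase than Sat1. From WI to IR their median was also -0.05, with 10 of the 285 at least 2-fold higher, beside 5.78% of all genes. In that comparison 1, the small nucleolar RNA gene Snora70 (named after its value was seen), lay above Sat1. The part of the difference in sex in the change of Sat1 was not tested beyond these values.

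The order of levels was similar in the 3 samples. Oaz1 and Sat1 were the highest in each. The rows of Sms and Amd1 were the lowest, and the bounds of Sms lay below those of the other genes except Amd1 in every sample. The rank of Amd1 rests on the division of its locus, whose summed FPKM of 10.6, 11.75 and 10.03 was close to those of Srm in sham and Oaz2 in IR. Odc1, Azin1, Oaz2 and Srm lay between, and neighbours among them had overlapping bounds throughout. Odc1 ranked above Azin1 in the sham and IR samples and below it in the WI sample, and Srm passed Oaz2 in the IR sample only, none of these neighbours differing beyond their bounds. Sat1 lay above the next gene, Odc1, with bounds apart in the sham sample.

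The FPKM summed over all genes was 475754 in sham, 487912 in WI and 712423 in IR. Genes with too many fragments for Cuffdiff are listed at 0 and so missing from these sums, 1 in sham, 1 in WI and 7 in IR. The Mup genes held 2.33%, 2.105% and 12.6% of the sums. Rescaling to a common sum (TPM) therefore lowered the IR sample, and the median change of all genes became -0.45 both from WI to IR and from sham to IR. Of the genes called over all genes from WI to IR, 80.2% were higher as deposited and 24.5% after this rescaling, and from sham to IR 71.3% and 17.0%. Relative to the median of all genes, the change from WI to IR was 2.87 as deposited and 2.81 after rescaling for Sat1, 1.496 and 1.46 for Odc1, and 0.90 and 0.87 for Srm. From sham to IR these values were 2.39 and 2.33 for Sat1, 1.31 and 1.26 for Odc1, and 1.33 and 1.31 for Srm. Without reference to the median, Sat1 remained past 2-fold after rescaling, at 1.87 from sham to IR, while Odc1 at 0.81 and Srm at 0.85 did not. With the Mup genes left out of the sum, these values were 0.97 for Odc1 and 1.01 for Srm.

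**Figure D4:**
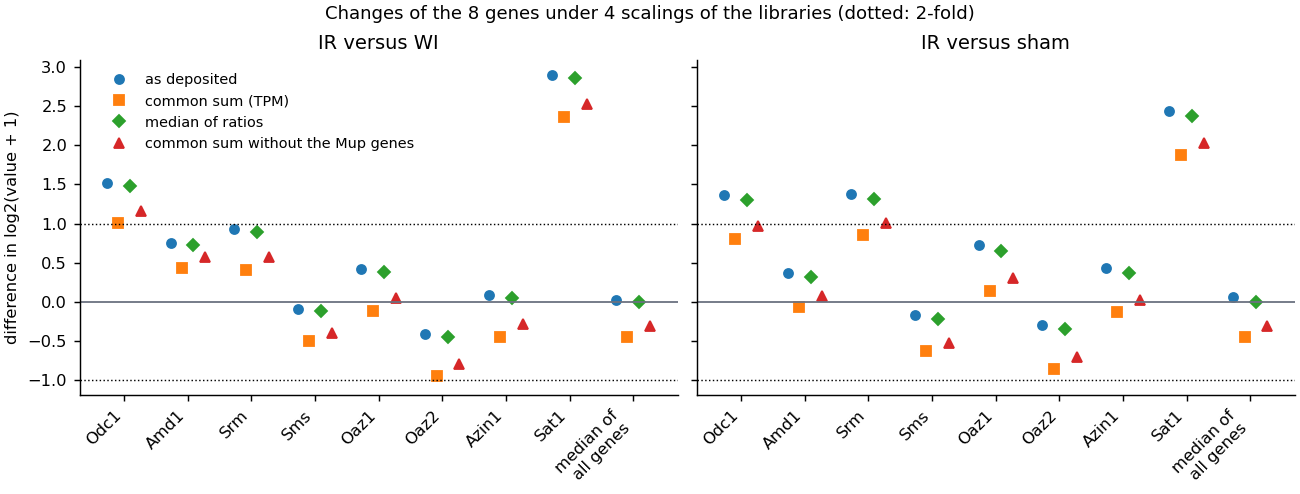
Differences in log2(value + 1) of the 8 genes and the median of all genes (vertical axis) from WI to IR and from sham to IR under 4 scalings of the libraries; dotted lines mark 2-fold. The points of each gene shift together with the median of all genes, from 0.03 to -0.45 between FPKM as deposited and TPM in the comparison of IR with WI, and Sat1 lies highest under every scaling.

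A wider list of 44 genes that feed, use or transport polyamines was read in the same way, and 36 of them passed the filter. From sham to WI, 0 of the 36 were called higher and 1 lower, from WI to IR 5 were higher and 0 lower, and from sham to IR 4 were higher and 0 lower. The shares of all genes called higher and lower were 0.751% and 1.10%, 5.78% and 1.43%, and 5.35% and 2.15% in these comparisons. Bounds lay apart for 0, 2 and 1 of the 36 in the same order, each time in the higher direction. Over all genes the shares with bounds apart were 0.195%, 3.22% and 2.70% higher, and 0.482%, 0.398% and 1.12% lower. The median change of the 36 as deposited was 0.15, 0.15 and 0.26, against 0.02, 0.03 and 0.05 over all genes. After rescaling to a common sum the medians were 0.12, -0.38 and -0.25, with 4 higher and 6 lower from WI to IR, beside 3.57% and 11.0% of all genes, and 3 higher and 3 lower from sham to IR, beside 2.96% and 14.4%. Of the 5 transcriptional regulators of the list, 2, Myc and Mxd1, were at least 2-fold higher from WI to IR, beside the 5.78% of all genes. Myc, whose protein binds the E-box and is known to activate Odc1, had an FPKM of 7.42 in sham (3.42 to 11.4), 2.03 in WI (0.620 to 3.45) and 14.5 in IR (7.27 to 21.8), a change of -1.47 from sham to WI and 2.35 from WI to IR. Its bounds lay apart between WI and IR, and between sham and WI they overlapped by a little, from 3.42 to 3.45. Mxd1, which competes with Myc for the partner Max, had an FPKM of 1.53, 1.71 and 6.03 in the sham, WI and IR samples, with the IR bounds of 3.22 to 8.84 above those of both others. Max itself differed by 0.32 from sham to IR as deposited and by -0.22 after rescaling to a common sum.

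Among enzymes that supply ornithine, Arg2, the mitochondrial arginase, had an FPKM of 0.364 in sham (0 to 1.80), 0.103 in WI (0 to 0.874) and 3.12 in IR (0 to 7.87). It passed the filter only through the IR sample, and all its lower bounds were 0. Arg1, the urea cycle arginase that dominates in hepatocytes, had an FPKM of 981, 802 and 1206 in the sham, WI and IR samples, and was not called. Slc3a2, the heavy chain shared by several amino acid transporters and linked to polyamine export, had an FPKM of 15.7 (8.10 to 23.2), 14.3 (7.26 to 21.3) and 35.8 (17.7 to 53.9) in the sham, WI and IR samples, and its change from sham to IR was 1.14 as deposited and 0.60 after rescaling to a common sum. The other 5 transport genes that passed the filter had negative changes from sham to IR.

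The other breakdown enzymes did not all resemble Sat1. Smox, the spermine oxidase, had an FPKM of 1.56 in sham (0 to 17.3), 1.12 in WI (0 to 22.6) and 5.81 in IR (0 to 33.8), and its change from sham to IR was 1.41. The file's locus of Smox is shared by 13 symbols, and its lower bound was 0 in every sample. Paox, which oxidises the acetylated polyamines that Sat1 makes, had an FPKM of 17.0, 24.6 and 16.8 in the sham, WI and IR samples. Sat2, a paralogue of Sat1, had an FPKM of 5.54 (2.22 to 8.86), 8.76 (3.91 to 13.6) and 11.7 (5.50 to 17.8), with a change from sham to IR of 0.95 as deposited and 0.46 after rescaling to a common sum, both under the threshold, and of 1.06 with a pseudocount of 0.1 in place of 1.

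As deposited, 0 genes were called in the lists of S-adenosylmethionine supply (6 genes that passed the filter), methionine salvage (5), hypusine formation (3) or other regulators of ornithine decarboxylase (2). Of all genes, 5.78% were called higher and 1.43% lower from WI to IR, and 5.35% and 2.15% from sham to IR. With so few genes in the lists, 0 calls is near these shares. After rescaling to a common sum, Amd2 in the first list was past 2-fold lower from WI to IR, at -1.05. The largest changes from sham to IR in these lists as deposited were 0.61 for Gnmt, which consumes S-adenosylmethionine, 0.79 for Mri1, an enzyme of the salvage of the by-product of polyamine synthesis, 0.66 for Eif5a, the translation factor that carries hypusine made from spermidine, and 0.43 for Nqo1. After rescaling to a common sum they were 0.03, 0.30, 0.08 and -0.08. Nqo1, a quinone reductase that protects ornithine decarboxylase from the proteasome, had an FPKM of 5.84, 8.72 and 8.22 in the sham, WI and IR samples.

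**Figure D5:**
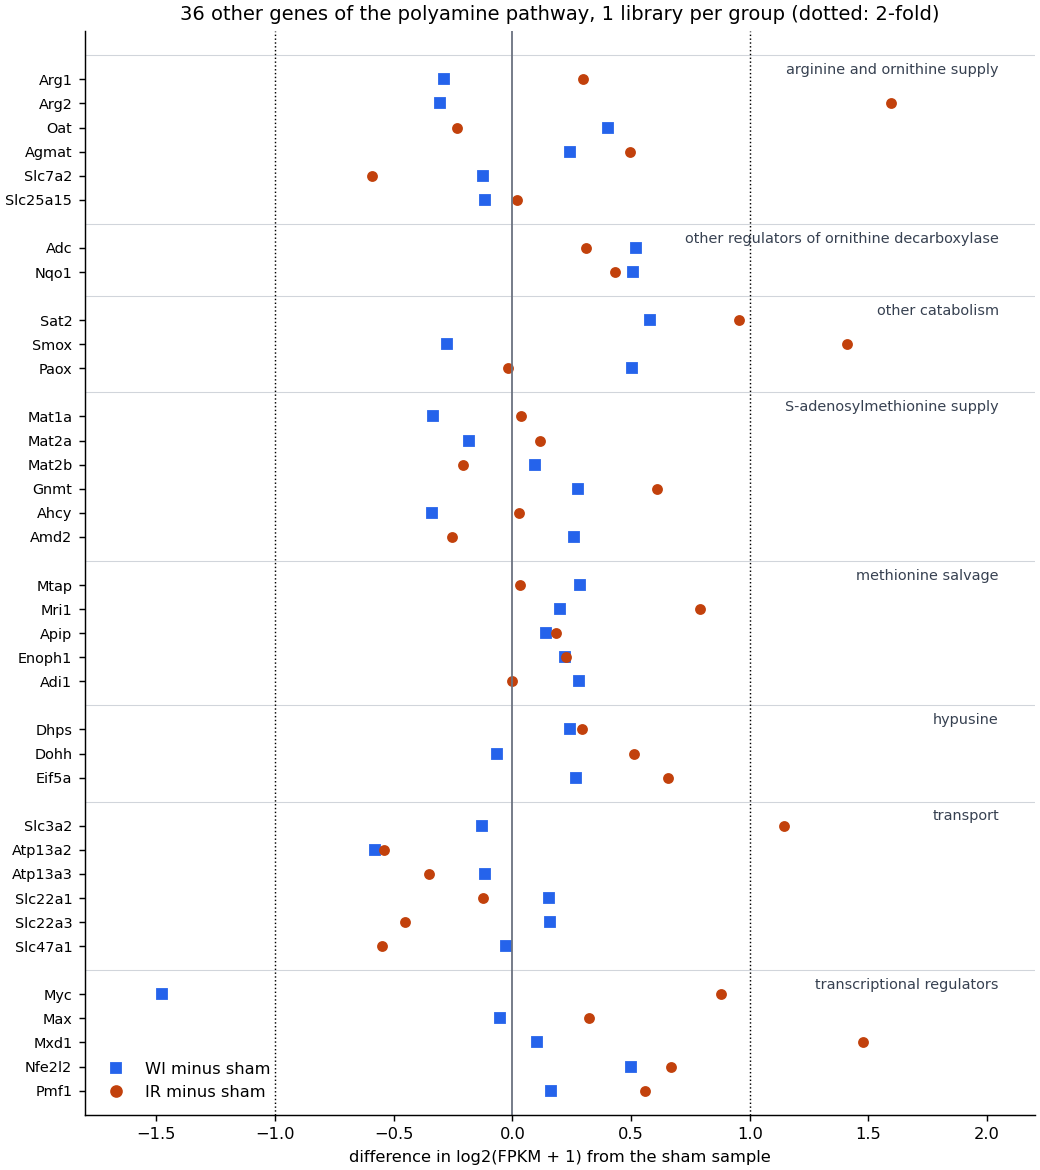
Differences in log2(FPKM + 1) from the sham sample (horizontal axis) for the 36 other pathway genes that passed the filter, grouped by role; blue squares are the WI sample, orange circles the IR sample, and dotted lines mark 2-fold. In the IR sample Arg2 (1.59), Mxd1 (1.48), Smox (1.41) and Slc3a2 (1.14) lie past the right line, and in the WI sample Myc (-1.47) lies past the left line.

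Genes with the most similar pattern were sought for the 3 called polyamine genes, by the distance over the 2 changes from sham to WI and from WI to IR. Each was compared with 6595 other genes that reached an FPKM of 5 in any of the samples and had the status OK in all. With 3 libraries such likeness rests on 2 numbers per gene. The nearest to Sat1 was Rassf1 (distance 0.0545), followed by Kctd15, Scara5, Thbd and Tiparp (0.197). Of these only Rassf1 reached an FPKM of 5 in a sample other than IR. Scara5, at an FPKM of 0.246, 0.00846 and 6.76 in the sham, WI and IR samples, was near Sat1 only because 1 is added before the logarithm. The added 1 also weighs on the others, whose FPKM in WI was 3.83 for Rassf1, 1.16 for Kctd15, 1.93 for Thbd and 2.58 for Tiparp. Nearest to Odc1 were Lilrb4 (0.00201), Ube2s, Jmjd1c, Slc16a1 and Cd63 (0.0472), with Jmjd1c over 5 in IR only, and nearest to Srm were Hist1h2bj (0.0423), Lrig1, Nek6, Cldn1 and Cxadr (0.0916).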

How the data were processed

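The mRNA of mouse liver was measured in 3 libraries, 1 per group. The authors mapped the reads to mm10 with Tophat 2.0.9 and computed gene expression with Cuffdiff 2.0.2, with default settings, and deposited for each gene the FPKM, its 95% bounds and a status. The submitters' processing notes name TopHat2 2.0.9 and Cufflinks 2.0.2. The study states the read pairs per library, and a smaller share of them was uniquely aligned in IR than in sham or WI. FPKM came without counts, so the reads behind a single value are unknown. The error implied by the bounds had a median of 26.5% of the FPKM in all 3 samples. Cuffdiff lists genes with too many fragments (status HIDATA) at 0, which touched 1 gene in the sham, 1 in the WI and 7 in IR.

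From these values the change was computed as a difference in log2(FPKM + 1), for genes that reached an FPKM of 1 in any of the samples, with a threshold of 2-fold. No test was made with 1 library per group. Intervals of ratios took the standard error of each FPKM from its upper bound, divided by 1.96, and were combined on the log scale. They cover the error of Cuffdiff's model only. Starts in the files count from 0 and were raised by 1. The text names all 8 members, the genes of the wider list past 2-fold or with the largest change from sham to IR in their list, and the 5 nearest genes of each called member; Arg1, Max, Paox and Sat2 were added after their values were seen. The members and lists were chosen with earlier results of these data known. All 44 wider genes were found, 2 of them under the older symbols Adc and Abp1. Promoter windows are those of RefSeq (GRCm38.p6), and coding sequences those of GENCODE on NCBIM37, joined by symbol. One of the markers chosen for erythroid cells is not reported here. The counting was checked on sham values with planted folds and no noise, which tests the arithmetic only and not the reliability of a call. Python 3.11.15, numpy 2.4.6, pandas 2.3.3, matplotlib 3.10.9 and Biopython 1.88 were used.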

Additional observations from a re-analysis of the deposited data

How the results depend on the processing

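Of 72 changes of the 8 genes recomputed under other scalings, 64 moved by less than the error from the bounds and 8, all with a common sum (TPM), moved further. The 48 changes with a pseudocount of 0.1 or 0.01 and the 6 of summed loci moved by less than that error, and 0 called changes turned. Filters cannot move a change. With either pseudocount, 3 polyamine genes were called from WI to IR, with Amd1 added, 3 from sham to IR and 0 from sham to WI, and 2, 6 and 5 wider genes from sham to WI, from WI to IR and from sham to IR instead of 1, 5 and 4, with Arg2 lower, Slc22a3 lower and Sat2 higher added. With TPM, 10 wider genes were called from WI to IR (4 higher, 6 lower) instead of 5, and 1 polyamine gene, Sat1, from sham to IR instead of 3. Bounds lay apart from WI to IR for 1 polyamine gene, Sat1, instead of 2 with TPM, with the median of ratios and without the Mup genes. At 1.5-fold, 4 polyamine genes and 9 wider genes were called from WI to IR and 11 wider genes from sham to IR. At 4-fold, 1 polyamine gene was called from WI to IR and 1 from sham to IR, and 0, 1 and 0 wider genes from sham to WI, from WI to IR and from sham to IR. Every other alternative count stayed within 1.5 times the reported one. Requiring an FPKM of at least 5 left out Amd1 and Sms. Summing rows that share a locus was chosen after seeing the data. Leaving out replicates or libraries was not possible with 1 library per group, and no paired analysis was possible because each group holds 1 library. The files give no counts, and the width of the bounds limits what can be detected for a single gene.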

Other observations

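The 8 wider genes that did not pass the filter were low in liver, under an FPKM of 1 in every sample. Slc7a1, a cationic amino acid transporter, was at 0.178 FPKM in sham (0.0485 to 0.307), 0.193 in WI (0.0546 to 0.332) and 0.687 in IR (0.283 to 1.09), the highest value in the IR sample with bounds that overlapped those of both others. Slc18b1, a vesicular polyamine transporter, had 0.909, 0.820 and 0.345 in the same order. Oaz3, the antizyme of the testis, had 0.151, 0 and 0.0480, and Satl1 was listed at 0 in all 3 samples. Abp1, Eif5a2, Slc22a2 and Slc12a8 lay at 0.351 or below in every sample.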
